A study of Mus musculus with 10 samples.

Results

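The insulin-like growth factor (IGF) system was followed through 10 genes: the ligands Igf1 and Igf2, the receptors Igf1r and Igf2r, and the binding proteins Igfbp2 to Igfbp7. The genes were picked by their symbols in the platform annotation, out of 19938 genes with a probe set of their own. Each of the 10 had 1 probe set, and that probe set carried 1 symbol. All 10 passed the filter on low values and were among the 14953 genes tested.

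The arrays came from the prostates of 10 male TRAMP mice. From 8 to 9 weeks of age, 5 mice drank a nicotine solution of 250 µg/ml, made from nicotine tartrate salt in tap water, and 5 drank tap water. All 10 mice carried the TRAMP transgene, a viral T antigen driven by a probasin promoter in the prostate epithelium, which gives rise to prostate tumours. Each array held RNA of 1 whole-tissue sample, so fewer cells of a type and less RNA per cell cannot be told apart, and the sources used here do not state the age at tissue collection.

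IGF-I and IGF-II are secreted growth factors that signal through the tyrosine kinase receptor Igf1r, while Igf2r binds IGF-II and carries it to lysosomes for breakdown. The binding proteins hold the ligands outside cells, lengthen their life and set how much reaches the receptor. In the prostate, stromal cells are a main source of IGF-I, and epithelial cells carry the receptor.

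Among the 10 arrays, those of nicotine 1 and nicotine 3 were set apart. Over the tested genes, each array's median correlation with the rest came to 0.88 in nicotine 1, 0.65 in nicotine 3 and 0.98 to 0.99 in the remaining 8 mice. The 8 measured prostate epithelium markers of a list of 10 averaged 10.35 log2 units in nicotine 1, 6.51 in nicotine 3 and 11.39 to 11.60 in the other nicotine mice, against 11.42 to 11.72 in water mice. In nicotine 3, 5 of these 8 markers lay below 6.55, the level under which genes were left untested, and the mouse's own probasin gene Pbsn was at 5.08. These epithelium markers therefore do not by themselves bear out the prostate label of that array. Their low values do not show another tissue either, and its make-up was not tested. Neuroendocrine markers, 12 of 13 measured, averaged 9.13 in nicotine 1, 10.002 in nicotine 3 and 7.09 to 7.46 in the other nicotine mice, against 6.998 to 7.55 in water mice. Skeletal muscle markers, 11 of 11 measured, averaged 10.06 in nicotine 1 and at most 7.52 in every other mouse. Seminal vesicle markers, 11 of 12 measured, were high in nicotine 5 (12.53) and in water 3, 4 and 5 (12.04 to 13.17), and at most 8.50 in the other 6 mice.

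Across the family, the most even difference between the groups was that of Igfbp7, whose difference was -0.28 log2 units, a fold of 0.824, with all 5 nicotine mice below all 5 water mice. It was the single gene of the 10 whose groups did not overlap, where 2.88% of all tested genes did not overlap in the lower direction and 2.02% in the higher. The larger differences of Igf1, Igf2r, Igfbp3 and Igfbp6 rested mainly on nicotine mice 1 and 3. In the limma fit of all 10 mice, 0 of the 10 genes passed an adjusted p of 0.05, as did 0 of 14953 genes (0%), and the adjusted p of the 10 ran from 0.458 to 0.862. At an unadjusted p under 0.05 there was 1 gene of the 10, Igfbp7, where 5.84% of tested genes were lower and 4.28% higher. The difference was negative for 9 of the 10 genes, with a median of -0.26 log2 units, while 49.3% of tested genes were negative and their median was 0.0039. Without nicotine mice 1 and 3 it was negative for 9 of 10, against 6952 of 14953 tested genes. The medians there were -0.081 and 0.0095. These were not the same 9 genes, as Igfbp2 turned positive (0.046 ± 0.066, SE) and Igfbp3 negative (-0.028 ± 0.095). Of the negative differences, those of Igf2, Igf2r, Igfbp3 and Igfbp6 were smaller than their SE. Fits without nicotine mice 1 and 3 compare 3 nicotine with 5 water mice.

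**Figure D1:**
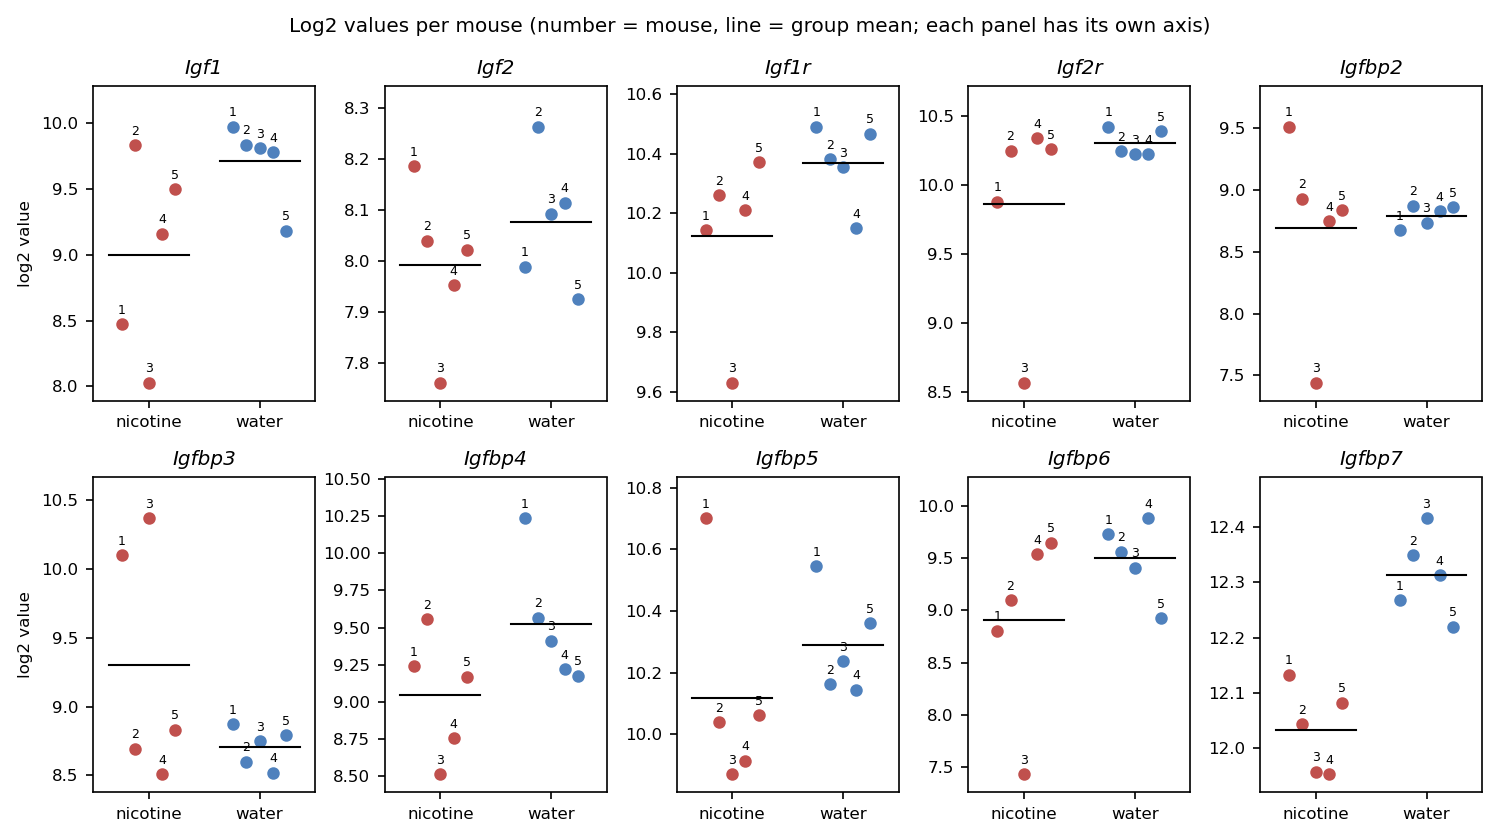
Log2 values of the 10 genes in each mouse, nicotine at the left and water at the right of each panel; points carry the mouse number, lines are group means, and each panel has its own axis. All nicotine points of Igfbp7 lie below all water points (11.95 to 12.13 against 12.22 to 12.42), while nicotine 3 is the lowest point for Igf1, Igf2, Igf1r, Igf2r, Igfbp2, Igfbp4, Igfbp5 and Igfbp6.

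Igf1, which encodes the ligand IGF-I, had log2 values of 8.47, 9.83, 8.03, 9.16 and 9.50 in nicotine mice 1 to 5, against 9.97, 9.83, 9.81, 9.78 and 9.18 in water mice 1 to 5. Nicotine 1 and 3 were the lowest of all mice, nicotine 4 also lay just under the lowest water mouse, and nicotine 2 and 5 lay within the water range. Igf1 averaged 9.00 ± 0.74 in nicotine mice and 9.71 ± 0.31 in water mice (SD, n = 5 each). The difference was -0.72 ± 0.33 log2 units (SE), with a 95% interval from -1.45 to 0.015 and a limma adjusted p of 0.458. Without nicotine 3 it was -0.47, and without nicotine 1 and 3 it was -0.22 ± 0.18. The lowest water value was that of water 5. Macrophage markers, 10 of 10 measured, had list means of 7.93 to 8.52 in nicotine mice, against 8.34 to 8.99 in water mice, and fibroblast markers, 12 of 12 measured, had list means of 8.21 to 9.01 against 9.18 to 9.55. Their part in the Igf1 difference was not tested.

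Igf2 encodes IGF-II, a fetal growth factor expressed from the paternal copy. Its log2 values were 8.19, 8.04, 7.76, 7.95 and 8.02 in nicotine mice 1 to 5, against 7.99, 8.26, 8.09, 8.11 and 7.93 in water mice 1 to 5. The groups overlapped and nicotine 3 was again the lowest, although by far less than for Igf1. The difference was -0.084 ± 0.093 log2 units (SE), with a 95% interval from -0.29 to 0.12 and a limma adjusted p of 0.603. It was -0.072 ± 0.075 without nicotine 1 and 3. Single mice moved it more, to -0.026 without nicotine 3, -0.038 without water 2 and -0.13 without nicotine 1.

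Igf1r, the receptor that signals for both ligands, was at 10.14, 10.26, 9.63, 10.21 and 10.37 log2 units in nicotine mice 1 to 5, against 10.49, 10.38, 10.36, 10.15 and 10.47 in water mice 1 to 5. Nicotine 3 was the lowest, nicotine 1 lay just under the lowest water mouse, and nicotine 2, 4 and 5 lay within the water range. The mean was 10.12 ± 0.29 in nicotine mice and 10.37 ± 0.13 in water mice (SD, n = 5 each), a difference of -0.25 ± 0.14 (SE) with an interval from -0.55 to 0.060 and a limma adjusted p of 0.458. It was -0.12 without nicotine 3 and -0.088 ± 0.080 without nicotine 1 and 3.

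Igf2r, the clearance receptor for IGF-II, was the gene of the 4 ligands and receptors that depended most on 1 mouse. Its log2 values were 9.88, 10.25, 8.57, 10.34 and 10.26 in nicotine mice 1 to 5, against 10.42, 10.25, 10.23, 10.23 and 10.39 in water mice 1 to 5. Against the water mean, nicotine 3 stood at -1.73 log2 units, 3.33-fold lower, and nicotine 1 at -0.42, while nicotine 2, 4 and 5 lay among the water mice. The difference of -0.44 ± 0.31 (SE) over all mice had an interval from -1.13 to 0.24 and a limma adjusted p of 0.474. It was -0.12 without nicotine 3 and -0.018 ± 0.065 without nicotine 1 and 3.

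Igfbp2 and Igfbp5 are next to each other among the protein-coding genes of chromosome 1 in RefSeq. Both were higher in nicotine 1 than in nicotine 3, as was every other of the 10 genes except Igfbp3. Igfbp2, a binding protein that favours IGF-II, was at 9.51, 8.93, 7.44, 8.75 and 8.84 log2 units in nicotine mice 1 to 5, against 8.67, 8.87, 8.73, 8.83 and 8.86 in water mice 1 to 5. The highest and the lowest of the 10 values were both from nicotine mice, and the water mice lay within 0.20 of each other. The group means of 8.69 ± 0.76 in nicotine mice and 8.79 ± 0.086 in water mice (SD, n = 5 each) differed by -0.099 ± 0.31 (SE), with a limma adjusted p of 0.862. Without nicotine 1 the difference was -0.30, without nicotine 3 it was 0.21, and without nicotine 1 and 3 it was 0.046 ± 0.066, so its direction rested on nicotine 3.

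Igfbp5, which binds matrix and is made by stromal and smooth muscle cells, was at 10.70, 10.04, 9.87, 9.91 and 10.06 log2 units in nicotine mice 1 to 5, against 10.54, 10.16, 10.24, 10.14 and 10.36 in water mice 1 to 5. Nicotine 1 was the highest of all mice and the other 4 nicotine mice lay below all water mice. The difference was -0.17 ± 0.16 (SE) with a limma adjusted p of 0.540. It was -0.32 without nicotine 1, -0.11 without nicotine 3 and -0.11 without water 1. Without nicotine 1 and 3 it was -0.28 ± 0.092, with an unadjusted p of 0.0107 and an adjusted p of 0.192 by limma. In these 8 mice the groups of 2 of the 10 genes, Igfbp5 and Igfbp7, did not overlap, where 6.47% of tested genes did not overlap in the lower direction. Both also had an unadjusted p under 0.05 there, where 8.69% of tested genes were lower at that level.

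**Figure D2:**
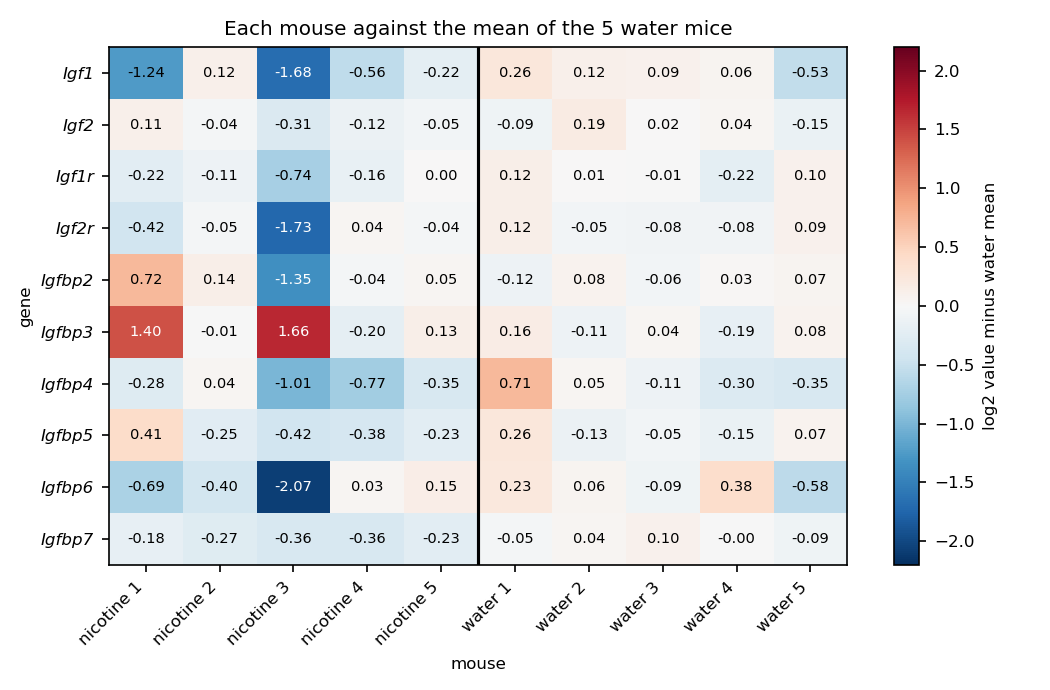
Log2 value of each gene (rows) in each mouse (columns, nicotine left of the black line and water right of it) minus the mean of the 5 water mice; red is higher and blue is lower. Igfbp3 stands 1.40 and 1.66 above the water mean in nicotine 1 and 3, Igfbp6 stands at -2.07 in nicotine 3, and the row of Igfbp7 is negative in all 5 nicotine mice.

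Igfbp3, the main carrier of IGFs in blood and a protein that can restrain growth apart from IGF binding, was the 1 gene of the 10 with a positive difference. Its log2 values were 10.10, 8.69, 10.37, 8.51 and 8.83 in nicotine mice 1 to 5, against 8.87, 8.60, 8.75, 8.52 and 8.79 in water mice 1 to 5. Nicotine 1 and 3 lay 2.63-fold and 3.17-fold above the water mean, and the other 3 nicotine mice were within or just below the water range. The difference was 0.60 ± 0.36 (SE), with an interval from -0.21 to 1.40 and a limma adjusted p of 0.459. Without nicotine 1 it was 0.39, without nicotine 3 it was 0.33, and without both it was -0.028 ± 0.095. These are the mice with high neuroendocrine marker means, 9.13 and 10.002, and the part of those cells in the Igfbp3 value was not tested. Igfbp1, the protein-coding gene next to Igfbp3 on chromosome 11 in RefSeq and a binding protein known mainly from liver, was at 6.59, 6.90, 6.53, 6.53 and 6.68 in nicotine mice 1 to 5, against 6.56, 6.60, 6.59, 6.79 and 6.57 in water mice 1 to 5. Igfbp1 was thus not high in nicotine 1 or 3, and its difference was 0.025 ± 0.087 (SE). Its values lay close to 6.55, the level under which genes were left untested, which limits what they show.

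Igfbp4, which inhibits IGF action until the protease Pappa cleaves it, was at 9.24, 9.56, 8.51, 8.75 and 9.17 log2 units in nicotine mice 1 to 5, against 10.23, 9.57, 9.41, 9.22 and 9.18 in water mice 1 to 5. Here the spread was as wide in water mice, where water 1 was the highest of all, and 3 nicotine mice lay below all water mice. The means of 9.05 ± 0.41 in nicotine mice and 9.52 ± 0.43 in water mice (SD, n = 5 each) differed by -0.47 ± 0.25 (SE), with a limma adjusted p of 0.458. Without nicotine 1 and 3 the difference was -0.36 ± 0.24. Without water 1 it was -0.30.

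Igfbp6, which binds IGF-II in preference to IGF-I and inhibits it, was at 8.81, 9.10, 7.43, 9.54 and 9.65 log2 units in nicotine mice 1 to 5, against 9.73, 9.56, 9.41, 9.88 and 8.92 in water mice 1 to 5. Nicotine 3 stood at -2.07 log2 units against the water mean, the widest gap of any of the 10 genes in that mouse. Nicotine 2, 4 and 5 lay within the water range. The difference was -0.60 ± 0.39 (SE), with a limma adjusted p of 0.467, and it was -0.23 without nicotine 3 and -0.073 ± 0.20 without nicotine 1 and 3. Fibroblast markers in nicotine 3 had the lowest list mean of all mice, 8.21, and smooth muscle markers, 10 of 10 measured, averaged 7.99 there, against 10.53 to 10.79 in water mice. Their part in the Igfbp6 value was not tested.

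Igfbp7 encodes a secreted protein of vessel walls and stroma that binds IGFs weakly and is often counted as an IGFBP-related protein. Its log2 values were 12.13, 12.04, 11.96, 11.95 and 12.08 in nicotine mice 1 to 5, against 12.27, 12.35, 12.42, 12.31 and 12.22 in water mice 1 to 5. The highest nicotine mouse was below the lowest water mouse, and nicotine 1 and 3 were not apart from the other nicotine mice. The means were 12.03 ± 0.078 in nicotine mice and 12.31 ± 0.075 in water mice (SD, n = 5 each), against a median SD of 0.261 in nicotine mice and 0.0969 in water mice over all tested genes. The difference was -0.28 ± 0.063 (SE), with an interval from -0.42 to -0.14. By limma the unadjusted p was 0.00139 and the adjusted p was 0.458, so it did not pass over all genes. The exact two-sided permutation p, not adjusted, was 0.00794, which is the lowest value 252 arrangements allow. Any gene whose groups do not overlap gets this value, and 4.9% of tested genes did not overlap. It therefore restates the separation of the groups and adds nothing to it.

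The Igfbp7 difference was as large without nicotine 1 and 3, at -0.29 ± 0.060, with a limma adjusted p of 0.0947. With array weights it was -0.30 ± 0.049 and passed, with a limma adjusted p of 0.0107. The weights were lowest in nicotine 1 and 3 (0.113 and 0.0321) and highest in nicotine 5 and water 3 (4.67 and 4.54). In that fit Igfbp7 was the 1 gene of the 10 that passed, where 4.49% of tested genes passed in the lower direction. Adding each mouse's seminal vesicle marker mean as a covariate gave -0.27 ± 0.074, with a limma adjusted p of 0.853. Quantile normalization applied again to the deposited values reduced it to -0.19 and made the groups overlap. Nicotine 1 and 3 were then at 12.22 and 12.15, against 12.14 in water 5, and nicotine 2, 4 and 5 stayed below all water mice at 11.92 to 12.04. The separation of all 5 nicotine mice from all 5 water mice thus held on the deposited scale and not after this step.

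The marker lists moved beside Igfbp7 in different ways. Fibroblast list means were lower in every nicotine mouse (8.21 to 9.01) than in every water mouse (9.18 to 9.55), with 5 of 12 markers not overlapping. Endothelial markers, 10 of 10 measured, had list means of 7.73 to 8.42 in nicotine mice, against 7.96 to 8.16 in water mice, with 0 of 10 not overlapping. Proliferation markers, 9 of 10 measured, had list means of 9.72 to 10.96 in nicotine mice, against 9.25 to 9.45 in water mice, with 8 of 9 not overlapping in the higher direction. In the macrophage list, whose means overlapped, 3 of 10 markers did not overlap in the lower direction. Over all tested genes 2.88% did not overlap in the lower direction and 2.02% in the higher. The part of fibroblast, macrophage or proliferating cell content in the Igfbp7 difference was not tested.

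The start regions of Igfbp7 and Igfbp3 are shown because these genes had unlike patterns: Igfbp7 stood at -0.18 to -0.36 against the water mean in every nicotine mouse, and Igfbp3 was high in 2 of them. Each line gives the 250 bases before the RefSeq start on the minus strand of GRCm38.p6, 5′ to 3′, at chr5:77408046-77408295 for Igfbp7 and chr11:7213924-7214173 for Igfbp3. Capitals mark GC boxes (GGGCGG, or CCGCCC on the other strand) and TATA boxes (TATAAA, or TTTATA).
Igfbp7: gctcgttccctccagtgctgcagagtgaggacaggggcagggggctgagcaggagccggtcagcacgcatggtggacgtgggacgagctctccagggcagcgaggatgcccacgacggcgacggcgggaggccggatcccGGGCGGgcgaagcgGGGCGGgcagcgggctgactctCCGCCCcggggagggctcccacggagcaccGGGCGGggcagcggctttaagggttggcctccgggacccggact
Igfbp3: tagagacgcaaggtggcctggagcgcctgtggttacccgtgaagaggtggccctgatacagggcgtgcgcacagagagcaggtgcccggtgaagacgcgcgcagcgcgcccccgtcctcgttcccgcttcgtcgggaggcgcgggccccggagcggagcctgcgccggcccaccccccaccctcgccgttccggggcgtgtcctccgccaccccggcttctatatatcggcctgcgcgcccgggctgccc
The Igfbp7 window held 4 GC boxes and the Igfbp3 window 0, and neither held the TATAAA letters. Both were rich in CG dinucleotides, 26 in Igfbp7 and 32 in Igfbp3, against a median of 6. Of 32851 RefSeq windows of this length, 32.7% held a GC box and 12.4% a TATA box by these letters. All 10 genes had at least 1 window. The windows of Igf1, Igfbp4, Igfbp5 and Igfbp6 also held 0 GC boxes, that of Igf1r held 2 and that of Igf2r 3. Igf2 and Igfbp2 had windows with and without GC boxes. A link between these letters and the patterns was not tested.

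**Figure D3:**
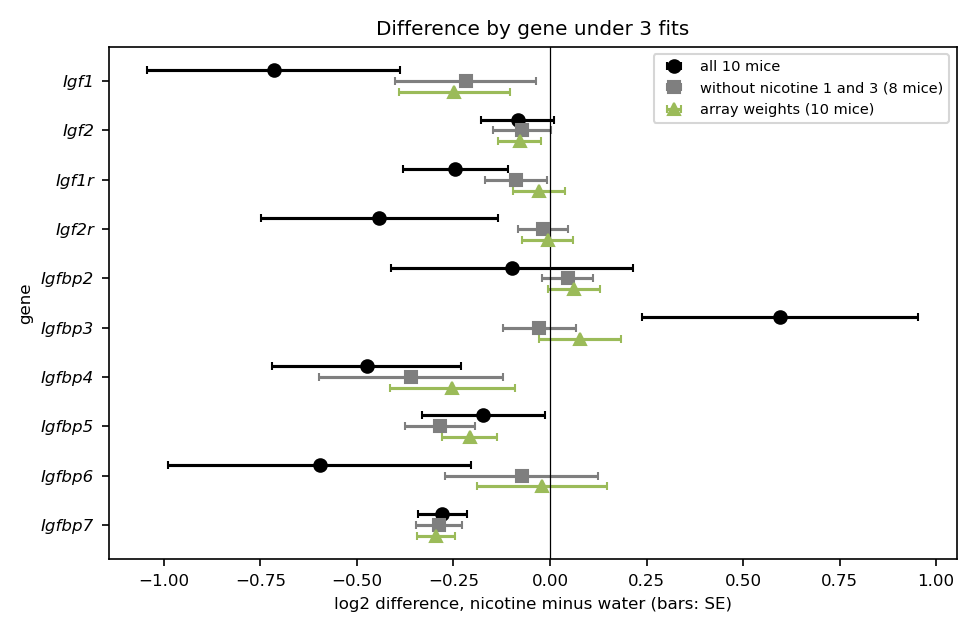
Log2 difference, nicotine minus water, of each gene in the fit of all 10 mice (black circles), without nicotine 1 and 3 (grey squares) and with array weights (green triangles); bars are the SE. Igfbp7 keeps its place near -0.28 in all 3 fits, while Igf2r, Igfbp3 and Igfbp6 lie near 0 in the fits that leave out or down-weight nicotine 1 and 3.

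Further genes of the IGF system were read from 5 lists with 63 genes, of which 56 were measured and 53 tested. None passed an adjusted p of 0.05 by limma. At an unadjusted p under 0.05, 3 were lower (Adam28, Insr and Pik3r1) and 3 were higher (Irs2, Akt1 and Pik3r2), against 10.1% of all tested genes in either direction. The median difference over the 53 genes was 0.012 log2 units, with 25 negative and 28 positive. The groups did not overlap for 4 of the 53, Adam28 and Pik3r1 lower and Irs2 and Socs2 higher, where 4.9% of tested genes did not overlap. Pik3r2, Socs2, Mmp7 and Ccn3 were named after their values were seen.

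Of the other binding proteins and relatives, 0 of 8 tested genes had an unadjusted p under 0.05. Igfals, which holds IGF and Igfbp3 in the blood complex, differed by 0.28 ± 0.14 log2 units (SE), Igfbpl1 by 0.52 ± 0.30 and the matrix-associated gene Ccn1 by 0.33 ± 0.18. Without nicotine 1 and 3 these differences were 0.18 for Igfals, 0.17 for Igfbpl1 and 0.30 for Ccn1. Igfals was low, at 6.65 to 7.33 in nicotine mice and 6.30 to 6.75 in water mice, near the filter level of 6.55. Nicotine 3 alone was high for Igfbpl1, at 8.08 against at most 6.63 in every other mouse.

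Of the 6 proteases of binding proteins and their inhibitors, Adam28, a membrane metalloprotease that can cleave Igfbp3, differed by -1.16 ± 0.51 log2 units (SE). It was at 6.99, 8.77, 6.35, 9.03 and 9.01 in nicotine mice 1 to 5, against 9.09 to 9.27 in water mice. Without nicotine 1 and 3 its difference was -0.25, and the groups still did not overlap. Pappa2, a protease of Igfbp5, differed by -0.17 ± 0.15, and by 0.0020 ± 0.085 without nicotine 1 and 3. Stc1, an inhibitor of the pappalysin proteases, was at 8.57 in nicotine 3 and differed by 0.24 ± 0.22, and by -0.049 ± 0.093 without nicotine 1 and 3, so neither kept its direction.

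Among the 5 tested related ligands and receptors, the insulin receptor gene Insr was at 10.07, 10.33, 10.09, 10.51 and 10.42 log2 units in nicotine mice 1 to 5, against 10.56, 10.67, 10.63, 10.47 and 10.64 in water mice 1 to 5. Of the nicotine mice, 4 lay below all water mice, and the difference was -0.31 ± 0.098 (SE) with a limma adjusted p of 0.458. It was -0.17 without nicotine 1 and 3. The growth hormone receptor gene Ghr, which acts upstream of Igf1, was at 7.34 in nicotine 3 and 9.51 to 9.91 in the other nicotine mice, against 9.46 to 9.82 in water mice. Insrr, the insulin receptor-related receptor, was at 10.25 in nicotine 1 and at most 6.74 in every other mouse. Ins2, the protein-coding neighbour of Igf2 on chromosome 7 in RefSeq, differed by 0.067 ± 0.057 (SE). Its values of 6.57 to 6.78 lay close to the filter level of 6.55.

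Of the 29 tested adaptor and signalling genes, 1 was lower and 3 were higher at an unadjusted p under 0.05. Pik3r1, the main regulatory subunit of PI3-kinase, was at 10.45, 11.00, 10.74, 10.98 and 11.03 log2 units in nicotine mice 1 to 5, against 11.23, 11.13, 11.24, 11.14 and 11.22 in water mice 1 to 5. Its groups did not overlap, and the difference was -0.35 ± 0.11 (SE), with a limma adjusted p of 0.458. Without nicotine 1 and 3 it was -0.19. With array weights it was -0.19 and passed, with a limma adjusted p of 0.0359. Irs2, a docking protein of insulin and IGF receptors, was at 8.52, 7.78, 8.51, 7.76 and 7.84 in nicotine mice 1 to 5, against 7.60 to 7.72 in water mice. The difference was 0.42 ± 0.17, and 0.13 without nicotine 1 and 3. The kinase gene Akt1 differed by 0.25 ± 0.10, and by 0.13 without nicotine 1 and 3. The docking protein gene Irs1 differed by -0.027 ± 0.17 over all mice and by 0.13 ± 0.11 without those 2, a turn in direction.

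In the list around Igf2 imprinting and mRNA binding, 0 of 5 tested genes had an unadjusted p under 0.05. The imprinted genes Mest and Peg3 were high in nicotine 1 and 3 alone. Mest was at 9.68 and 11.07 in nicotine 1 and 3 and 6.56 to 6.80 in the other nicotine mice, against 6.41 to 6.92 in water mice. Peg3 was at 9.53 and 10.21 in nicotine 1 and 3 and 6.63 to 7.21 in the other nicotine mice, against 6.74 to 7.24 in water mice. Igf2, imprinted like them, was at 8.19 and 7.76 in these 2 mice, and Dlk1 differed by 0.19 ± 0.12 (SE), or 0.085 ± 0.11 without them.

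**Figure D4:**
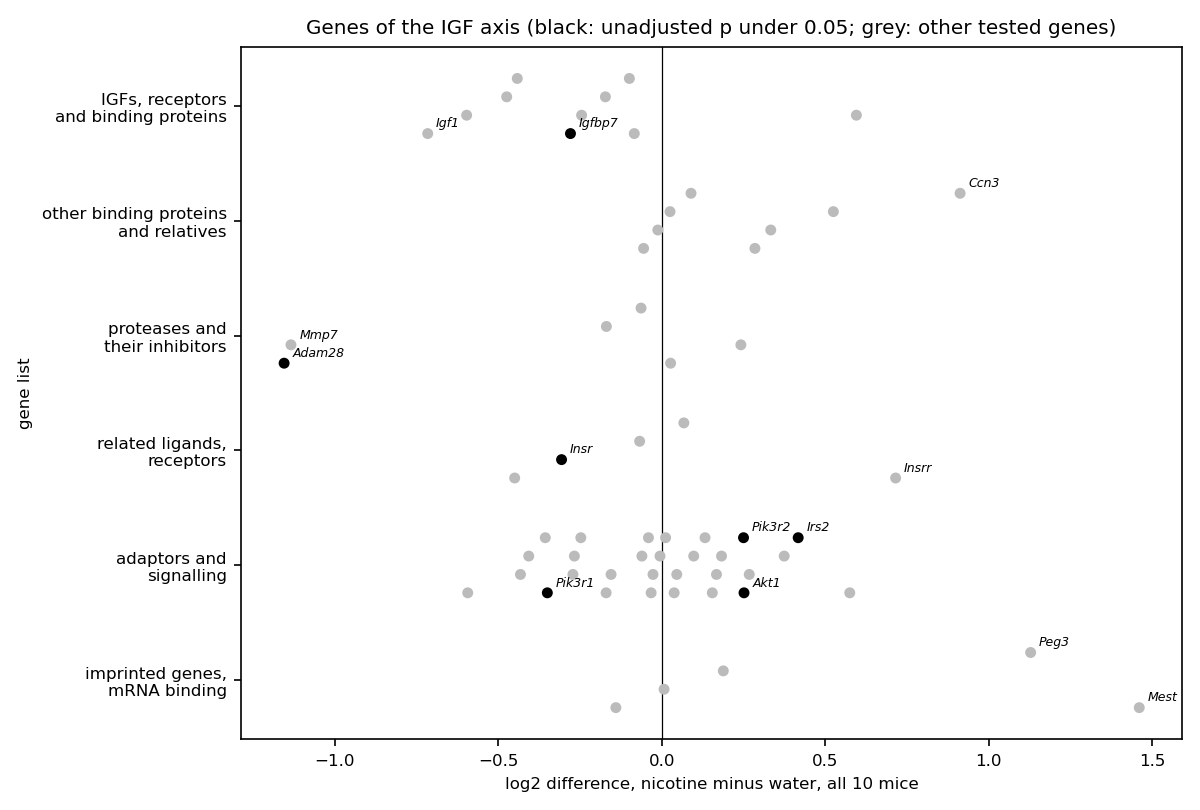
Log2 difference, nicotine minus water, over all 10 mice (horizontal axis) for the 10 genes and for the 53 tested genes of the 5 lists (rows; points are spread vertically within a row for legibility). Black points have an unadjusted p under 0.05 (Igfbp7 and 6 further genes), grey points do not, and genes beyond 0.6 are named.

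The genes most like each of the 10 were taken as the 3 tested genes with the highest Pearson correlation of log2 values over the 8 mice without nicotine 1 and 3. These coefficients ran from 0.94 to 0.98. The 8 arrays differ in tissue make-up, with seminal vesicle list means from 7.22 in water 1 to 13.17 in water 4. They also differ in group, and the part of either in the coefficients was not tested. The coefficients are the highest of 14953 genes over few arrays, and no chance level was computed. Over all 10 mice the same 30 pairs ran from -0.78 to 0.99, with 10 of them negative. The pairs of Igfbp6 with Glrb (-0.78), of Igfbp3 with Cyp1b1 (-0.67), Smad7 (-0.39) and Gab2 (-0.31), and of Igfbp7 with Cdkl3 (-0.28) and Ston2 (-0.28) were among those that turned. In the 8 mice, Igf1 was followed most closely by Il33 (0.97), Tifab (0.97) and Rac2 (0.96). For Igfbp7 they were Arl11 (0.96), Cdkl3 (0.96) and Ston2 (0.95), for Igfbp5 Tmem81 (0.97), Pdgfrb (0.97) and Rbm41 (0.96), and for Igfbp3 Gab2, Cyp1b1 and Smad7 (0.97 each). For Igfbp4 they were Themis2, Nav1 and Steap3 (0.97 each). For Igfbp2 they were Rln3 (0.98), Prrt3 (0.97) and Wnt10a (0.97), and for Igfbp6 Glrb (0.98), Scnm1 (0.97) and Cd82 (0.96). The genes closest to Igf2 were Sprr4 (0.97), Kcnd1 (0.94) and Hecw1 (0.94), those closest to Igf1r were Kdm3b (0.96), Piezo2 (0.95) and Zfp462 (0.94), and those closest to Igf2r were Lmtk2, Bcl9l and Sorbs3 (0.97 each).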

How the data were processed

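Affymetrix whole-transcript arrays of 1 colour measured biotin-labelled material made from Trizol-extracted prostate RNA, per the labels' protocols. The log2 values deposited by the authors cover 35556 probe sets on 10 arrays. How they were background-corrected, summarised and normalized is not given in the sources, and the log2 scale was read from the range of 3.59 to 14.1. No scan dates were used, so batches could not be checked, and 5 arrays per group limit the precision.

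Gene names come from the platform annotation and may be dated; 21789 had 1 symbol, 1621 several and 12146 none. Per gene the probe set with the highest mean was kept, and the 25% of genes with the lowest mean were left out. The comparison of nicotine with water used limma 3.58.1 in R 4.3.3 (lmFit, eBayes, two-sided, Benjamini-Hochberg over 14953 genes, threshold 0.05). The steps were tested on simulated data, drawn independently with the same SD in both groups. Arrays set apart from the rest, as nicotine 1 and 3 were, were not simulated. Separate mouse numbers in the labels mark separate mice. The members, lists and alternatives were chosen with earlier results of these data known. Named genes were the 10 members, up to 3 of each further list by smallest unadjusted p, Igfbp1, Insr, Irs1, Irs2, Ghr and Igfals. Promoter sequences and gene neighbours are from RefSeq, GRCm38.p6.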

Additional observations from a re-analysis of the deposited data

Results flagged for a closer look

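Of 20 groups of 5 mice (10 genes, each in nicotine and in water mice), 3 held a mouse whose gap to its neighbour exceeded 0.71 of the group's range; chance flags about 1 in 20 such groups. Igf2r in nicotine 3 was 8.57, against 9.88 to 10.34 in the other nicotine mice. Igfbp5 in nicotine 1 was 10.70, against 9.87 to 10.06 in the other nicotine mice. Igf1 in water 5 was 9.18, against 9.78 to 9.97 in the other water mice. This mouse had the lowest macrophage (8.34) and fibroblast (9.18) list means of the water mice. The part of these cells in its Igf1 value was not tested.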

How the results depend on the processing

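Over 21 alternative settings, Igf1, Igf2, Igf1r, Igf2r, Igfbp4, Igfbp5, Igfbp6 and Igfbp7 kept a negative difference in each. Settings that changed only the filter, the probe-set choice, the variance model or the replicate block could not move these differences. With array weights the differences of Igf2r (-0.0059 ± 0.066, SE), Igfbp6 (-0.021 ± 0.17) and Igf1r (-0.028 ± 0.067) were smaller than their SE. Igfbp2 turned positive with array weights (0.061), without nicotine mice 1 and 3 (0.046) and without nicotine 3 (0.21), and Igfbp3 turned negative without nicotine mice 1 and 3 (-0.028). Array weights were the one setting with genes past the threshold, 1096 of all genes. They included 1 of the 10 (Igfbp7) and 1 of the further IGF genes (Pik3r1). These counts were 0, 0 and 0 otherwise. The weights lower the influence of nicotine 1 and 3 and raise that of nicotine 5 (4.67) and water 3 (4.54) the most. The cause was not tested further. Leaving out each mouse in turn gave 0 to 0 genes and 0 to 0 of the 10, and the Igfbp7 difference ran from -0.30 to -0.25. Quantile normalization applied again moved the Igfbp7 difference to -0.19 and let its groups overlap. With the mouse number as a replicate block, 0 genes and 0 of the 10 passed; the same-numbered mice correlated in their deviations at -0.13 to 0.16, so the numbers are not taken to pair the mice.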

Other observations

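Growth hormone acts through Ghr and the transcription factors Stat5a and Stat5b to drive Igf1, with Socs2 as a feedback inhibitor; Stat5a, Stat5b and Socs2 were chosen after their values were seen. Stat5a was at 10.36 and 8.84 log2 units in nicotine 1 and 3 and 11.02 to 11.15 in the other nicotine mice, against 11.04 to 11.13 in water mice. Stat5b differed by -0.27 ± 0.12 log2 units (SE), and by -0.096 ± 0.051 without nicotine 1 and 3. Socs2 was at 10.22, 9.91, 11.52, 9.77 and 9.81 in nicotine mice 1 to 5, against 9.55 to 9.76 in water mice, so its groups did not overlap, by a narrow margin. None of these genes passed an adjusted p of 0.05 by limma.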
